A study of Homo sapiens with 10 samples.

Results

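The regions described here carried H3K27ac and H3K9ac but no called H4K16ac in immortalized human astrocytes before IDH1-R132H was induced. They were the islands of the H3K27ac list without doxycycline (noDox) on chromosomes 1 to 22 that were shorter than 20000 bp, overlapped an H3K9ac noDox island by at least 1 bp and overlapped no H4K16ac noDox island. An island is a stretch of the genome where the authors' caller counted more antibody reads than the control predicted. Of 52044 H3K27ac noDox islands, 1084 lay on chromosome X and 1321 on chromosomes 1 to 22 were 20000 bp or longer. Of the remaining 49639, 12230 (24.6%) met the rule. The regions were thus chosen by the islands of the 3 noDox lists, so their marks without doxycycline are given as a description and support nothing, and neither does any comparison with noDox.

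The series asks how IDH1-R132H, the cancer-associated form of isocitrate dehydrogenase 1, alters histone acetylation in IHA, a line of fetal human astrocytes immortalised with SV40. The marks were mapped by CUT&RUN, where antibody-bound nuclease cuts chromatin inside cells and the fragments set free are sequenced. Antibodies to H3K27ac, H3K9ac and H4K16ac were each used on untreated cells, labelled WT IDH1 and noDox, and on cells labelled IDH1-R132H after 2 days (2d-Dox) and 7 days (7d-Dox) of doxycycline at 1 µg/ml. The control for all 9 antibody libraries came from noDox cells and an HRP-linked secondary antibody with no primary one. All groups came from this line, grown with EGF and serum. No group received doxycycline without IDH1-R132H, so doxycycline and time in culture cannot be told apart from IDH1-R132H. Neither the promoter of the inducible construct nor whether the cells were 1 clone is stated in the sources used here. Each mark and time had 1 library, so no value below has replicate error and no test between conditions was possible. The labelled cell type was not checked against astrocyte genes, because the islands were not paired with a full gene annotation of their build.

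Acetylation of histone tails is written by acetyltransferases and removed by deacetylases. H3K27ac, written mainly by p300 and CBP, marks active enhancers and promoters. H3K9ac, written mainly by GCN5 and PCAF, is densest at active promoters. H4K16ac, written by MOF, loosens the packing of nucleosomes and forms broader domains. IDH1-R132H makes 2-hydroxyglutarate, which inhibits dioxygenases that demethylate DNA and histones.

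Depth differed among the libraries in ways that touch every result. Library size, relative to the HRP library, was 3.98, 3.15 and 1.49 for H3K27ac at noDox, 2d-Dox and 7d-Dox, 3.05, 4.17 and 4.88 for H3K9ac, and 2.53, 3.08 and 7.88 for H4K16ac. H3K27ac thus became shallower and H4K16ac deeper over the same times. The least read island had between 11 and 33 antibody reads, depending on the list, and lists ran from 52044 to 110234 islands. The intervals below treat regions or reads as independent draws, so they hold counting error and no library-to-library spread. Depth and condition cannot be told apart within a mark.

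Without doxycycline these regions were medium-sized islands with H3K27ac near that of all islands considered. Their median length was 4000 bp (quartiles 2600 and 5800, range 400 to 19800), between 5400 bp for the islands with all 3 marks and 2600 bp for those with H3K27ac only. The median count of H3K27ac reads was 124 per region (quartiles 71 and 228, range 25 to 1860). Per kb they held a median 33.1 H3K27ac reads, against 36.5 in islands with all 3 marks, 26.4 in islands with H3K27ac only and 23.1 in islands with H3K27ac and H4K16ac but no H3K9ac. HRP reads, the background, were 2.00 per kb here and from 1.92 to 2.00 in the other sets. The authors' fold over the HRP control, which is their own value per island, had a median of 4.41 in these regions and 4.97 where all 3 marks were called. Over all 49639 islands considered, the medians were 4200 bp, 124 H3K27ac reads, 31.8 reads per kb and a fold of 4.43.

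H3K9ac islands covered a median 66.7% of each region (quartiles 45.5 and 86.2). They covered 1815 regions (14.8%) from end to end and under 10% of 118 regions (0.965%). In 5596 regions (45.8%) the H3K9ac islands lay wholly inside the H3K27ac island, and 1408 regions (11.5%) touched 2 or more H3K9ac islands. The nearest H4K16ac noDox island was a median 5000 bp away (quartiles 2000 and 12200). H4K16ac was thus often called nearby though not over the region itself. The nearest other H3K27ac island lay a median 5200 bp away. It was itself one of these regions for 28.9% and carried all 3 marks for 43.8%.

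Later H4K16ac calls were compared just inside and just outside the limits of the rule. At the length and H3K9ac limits the islands were few, so their shares cannot show whether there was a sharp edge. The 30 regions of 18000 to 19800 bp had an H4K16ac island in 63.3% at 2d-Dox and 73.3% at 7d-Dox, and the 19 otherwise like islands of 20000 to 21800 bp, left out by length, in 57.9% and 68.4%. The 66 regions that met H3K9ac over just 200 bp had H4K16ac in 36.4% and 47.0%. The 68 islands that an H3K9ac island only abutted, left out, had it in 35.3% and 55.9%. The 213 regions that abutted an H4K16ac noDox island had H4K16ac later in 62.0% and 74.2%, and the 245 islands left out for an overlap of 200 bp had it in 58.4% and 77.6%.

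In doxycycline most regions were still called for H3K27ac and H3K9ac, and many were called for H4K16ac. H3K27ac was present in 11121 of 12230 regions (90.9%, 95% Clopper-Pearson interval 90.4 to 91.4) at 2d-Dox and in 9901 (81.0%, 80.2 to 81.6) at 7d-Dox. Over all 49639 H3K27ac islands considered, which include these regions, the shares were 87.7% and 79.1%. The regions with an H3K27ac island held 97.1% and 92.6% of the noDox H3K27ac reads of all 12230. The regions without one were thus mostly weak ones.

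H3K9ac was present in 9766 regions (79.9%, 79.1 to 80.6) at 2d-Dox and 9677 (79.1%, 78.4 to 79.8) at 7d-Dox, against 79.3% and 78.3% over all considered islands. Islands that had carried all 3 marks were called for H3K9ac more often, in 93.8% and 93.2%. Both sets had an H3K9ac island without doxycycline by choice. They also differed in length, and among islands of 2000 to 3800 bp H3K9ac was called in 73.4% and 73.2% of the regions, against 88.3% and 88.0% of islands with all 3 marks.

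H4K16ac, absent by choice at noDox, was called in 4821 regions (39.4%, 38.6 to 40.3) at 2d-Dox and in 6339 (51.8%, 50.9 to 52.7) at 7d-Dox. The shares over all considered islands, many of which had the mark at noDox, were 53.6% and 65.4%. The fairer neighbour is the set of 8111 islands with H3K27ac only, which also lacked H4K16ac at noDox: it had the mark in 17.9% (17.0 to 18.7) and 25.6% (24.7 to 26.6). The 3812 islands that had H4K16ac but no H3K9ac at noDox were called for it in 46.4% and 65.5%. The H3K27ac-only islands were shorter, but the gap was there at like length: among islands of 2000 to 3800 bp H4K16ac was called in 36.1% and 47.9% of the regions and in 18.1% and 26.0% of H3K27ac-only islands.

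**Figure D1:**
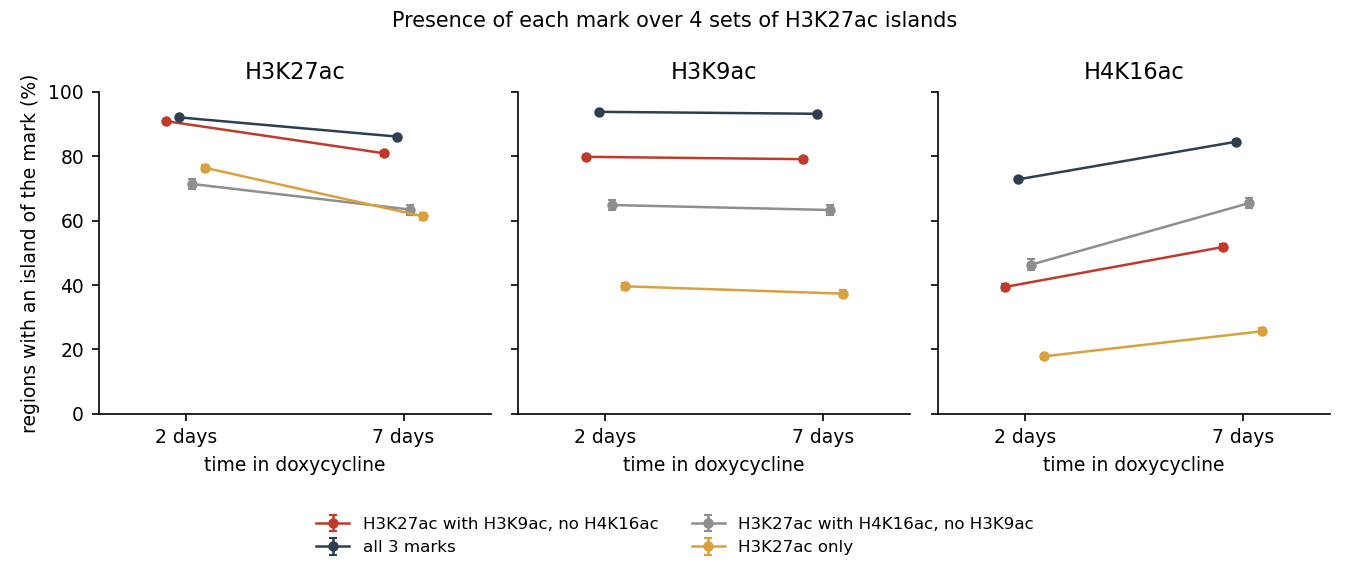
Share of regions (%) with an island of each mark after 2 and 7 days of doxycycline, for 4 sets of H3K27ac noDox islands; points are shares and bars 95% Clopper-Pearson intervals, with 1 library per mark and time. In the 12230 regions with H3K9ac but no H4K16ac, H3K27ac went from 90.9% to 81.0% while H4K16ac went from 39.4% to 51.8%.

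Taking the marks together, the starting state, H3K27ac with H3K9ac and no H4K16ac, held in 5267 regions (43.1%) at 2d-Dox and 3730 (30.5%) at 7d-Dox. All 3 marks were called in 3834 regions (31.3%) and 4442 (36.3%). In islands that began with all 3 marks, H3K27ac with H3K9ac alone went from 22.7% to 11.9% and all 3 marks from 64.6% to 69.8%. In H3K27ac-only islands these states went from 24.2% to 16.6% and from 8.01% to 8.78%. The direction of both moves was thus not particular to these regions. H3K9ac with H4K16ac but no H3K27ac, went from 313 regions (2.56%) to 1011 (8.27%). That state also went from 5.13% to 10.3% in islands with all 3 marks and from 2.34% to 5.63% in H3K27ac-only islands, so it was not particular to these regions. H3K27ac alone was called in 1481 (12.1%) and 1190 (9.73%), and no mark in 309 (2.53%) and 477 (3.90%). Followed over all 3 times, 2378 regions (19.4%) never left the starting state, 2283 (18.7%) carried all 3 marks at both later times, and 77 (0.630%) carried none at either. H3K27ac and H3K9ac were both called at all 3 times in 7032 regions (57.5%), which were longer (median 4800 bp) and held more noDox H3K27ac reads (median 188).

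**Figure D2:**
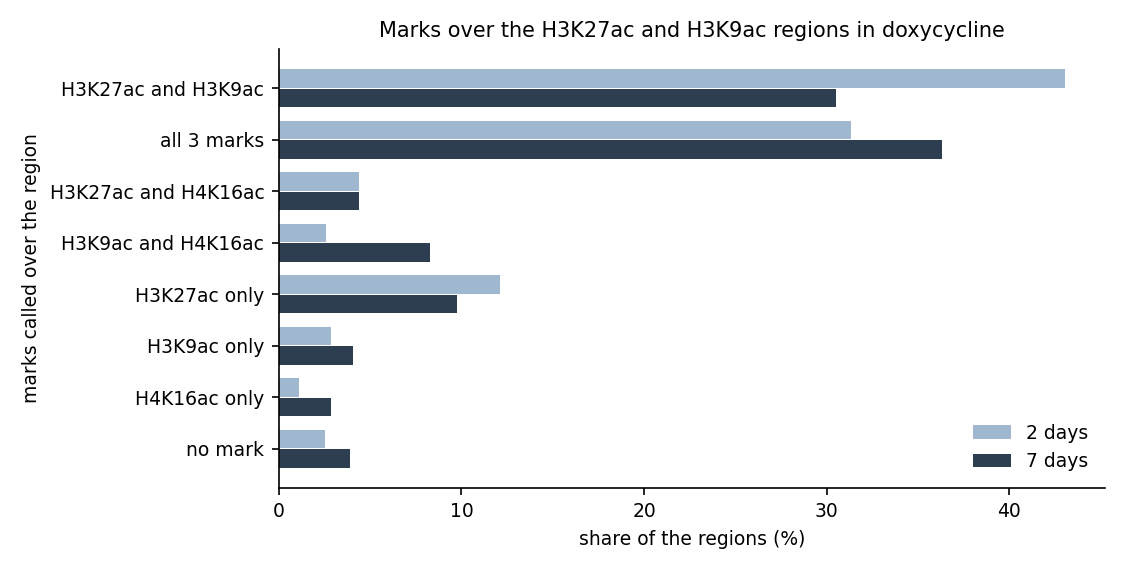
Marks called over the 12230 regions (vertical axis) and the share of regions in each state (horizontal axis, %) after 2 days and 7 days of doxycycline. H3K27ac with H3K9ac was the commonest state at 2 days (43.1%) and all 3 marks at 7 days (36.3%).

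H4K16ac tended to be called over the same regions at both times. It was present at both in 3534 regions (28.9%), at 2d-Dox only in 1287 (10.5%), at 7d-Dox only in 2805 (22.9%) and at neither in 4604 (37.6%). Of the regions with H4K16ac at 2d-Dox, 73.3% had it at 7d-Dox, against 37.9% of those without. The same shares were 58.4% and 18.5% in the H3K27ac-only islands and 91.9% and 64.7% in the islands with all 3 marks.

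H4K16ac went with H3K9ac more than with H3K27ac. At 2d-Dox it was called in 42.5% of regions with an H3K9ac island and 27.4% of regions without one, and at 7d-Dox in 56.4% and 34.7%. Split by H3K27ac instead, the shares were 39.3% with and 40.4% without at 2d-Dox, and 50.3% with and 58.3% without at 7d-Dox. The H3K27ac library was the shallowest of the 9 at 7d-Dox, and its part in the last pair was not tested. The same order held at both times in islands with all 3 marks and in H3K27ac-only islands, so it was not particular to these regions. Neither length nor distance to H4K16ac was held fixed in these splits.

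The H4K16ac islands that reached the regions ranged from small islands inside them to islands covering them whole. At 2d-Dox the touching islands held a median 46 reads per region (range 17 to 564) and at 7d-Dox 166 (36 to 2996). Scaled to the size of the noDox H4K16ac library these would be medians of 37.8 and 53.3 reads, where the noDox islands held a median of 31 and at least 11. In 67.0% of reached regions at 2d-Dox and 79.8% at 7d-Dox the scaled count was at or above that noDox median. These counts sum all islands touching a region, and the noDox islands were shorter, with a median of 2000 bp. Per kb and unit of library size, the H4K16ac islands inside the regions held a median 5.13 reads at 2d-Dox and 3.82 at 7d-Dox. The whole noDox H4K16ac list, 110234 islands with none over these regions, held a median 6.10, so the sites differ. In islands with all 3 marks the median log2 ratios per kb over noDox were -0.21 at 2d-Dox and -0.58 at 7d-Dox. Whether the later islands would have been called at noDox depth was not tested. At 2d-Dox, 40.9% of the reached regions held the H4K16ac island wholly inside and 11.3% were covered by it from end to end. At 7d-Dox the order was turned, with 18.2% and 30.5%, and the median touching length went from 3000 to 5800 bp. Of the H4K16ac islands touching the regions, 13.4% at 2d-Dox and 30.8% at 7d-Dox also touched a noDox H4K16ac island. The rule keeps the regions clear of noDox H4K16ac, so these shares are a description and are not set against those of other islands.

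The same rule applied to the later lists, and looked up in the noDox lists, gave shares of a similar kind. This was done after the values above were seen. At 2d-Dox 18044 of 57766 H3K27ac islands (31.2%) met the rule by that time's lists, and 45.9% of them (45.2 to 46.7) touched an H4K16ac noDox island. At 7d-Dox 14245 of 83000 (17.2%) met it, and 35.1% (34.4 to 35.9) touched one. Islands lacking H4K16ac in 1 list thus often had it in another list of the series whichever time came earlier. Their H3K27ac was found at noDox in 91.7% and 87.2%, and their H3K9ac in 76.5% and 72.4%. Islands with H3K27ac only by the later lists touched H4K16ac at noDox in 20.9% and 11.9%.

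The distance to the nearest noDox H4K16ac island ordered the later H4K16ac calls. In the 1235 regions 0 to 800 bp away it was called in 54.9% at 2d-Dox and 73.0% at 7d-Dox. In the 4709 regions at 1000 to 4800 bp the shares were 46.9% and 63.1%, in the 4441 at 5000 to 19800 bp 35.8% and 46.3%, and in the 1474 at 20000 to 99800 bp 20.9% and 25.0%. In the 371 regions 100000 bp or more away they were 10.5% (7.58 to 14.1) and 11.1% (8.05 to 14.7). The 7d-Dox share was thus well above the 2d-Dox share near noDox H4K16ac and about level with it at the greatest distances. Among regions of 2000 to 3800 bp alone, the order was the same, from 53.1% to 10.1% at 2d-Dox and from 70.6% to 7.30% at 7d-Dox.

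The H3K27ac-only islands had the same order but lay below at each distance, from 36.9% to 3.23% at 2d-Dox and from 57.6% to 2.72% at 7d-Dox. H3K9ac in the regions varied less with distance, from 82.8% to 64.4% at 2d-Dox. H3K27ac went the other way, from 87.7% to 95.7% at 2d-Dox and from 75.3% to 85.2% at 7d-Dox. Regions far from H4K16ac were thus called for H3K27ac more often and for the other marks less often.

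**Figure D3:**
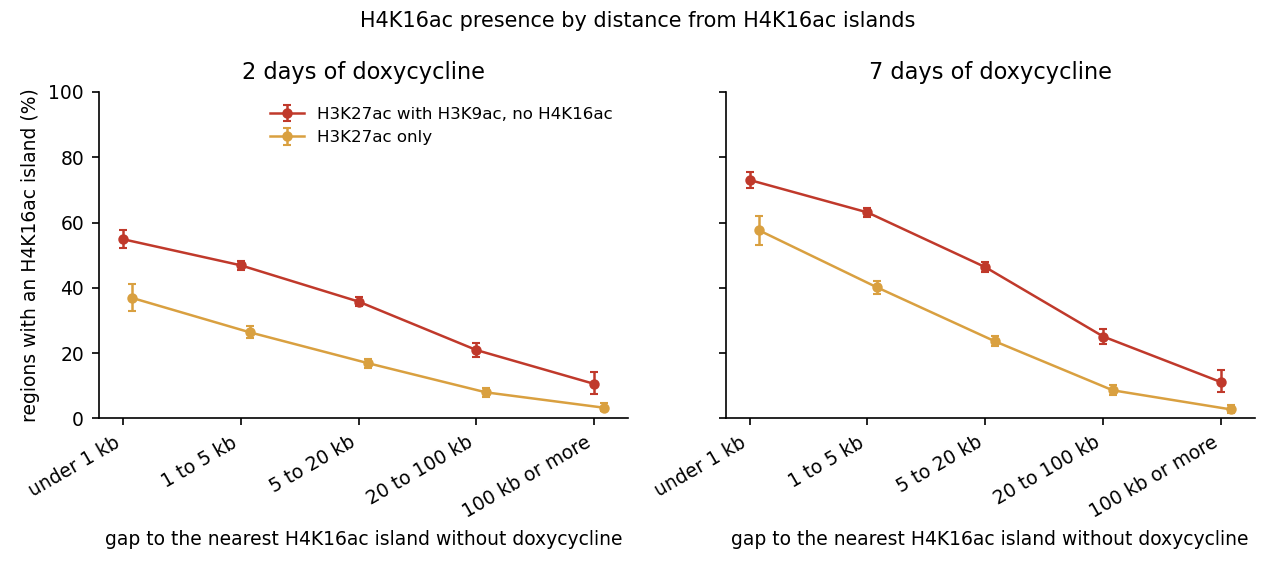
Share of regions (%) with an H4K16ac island at 2 and 7 days, by the gap to the nearest H4K16ac noDox island, for the regions with H3K9ac and for H3K27ac-only islands; points are shares and bars 95% Clopper-Pearson intervals. Shares are lower farther away in both sets, in the regions with H3K9ac from 54.9% to 10.5% at 2 days and from 73.0% to 11.1% at 7 days.

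Chromosomes 13, 16 and 19, singled out after their values were seen, had far fewer H4K16ac calls in these regions than the others. On chromosome 13, 23.4% of 338 regions had H4K16ac at 2d-Dox and 21.9% at 7d-Dox. The shares were 21.8% and 28.7% of 408 regions on chromosome 16, and 12.5% and 28.8% of 424 regions on chromosome 19. On the other 19 chromosomes together they were 41.6% and 54.5% of 11060 regions, and no single one of these was below 32.1% at 2d-Dox or 48.0% at 7d-Dox. H3K9ac was called in 78.9% and 78.8% of the 1170 regions of these 3 chromosomes, against 80.0% and 79.2% elsewhere. Chromosome 13 had the lowest H3K9ac shares of the 22, 72.5% and 74.0%, while chromosomes 16 and 19 were at 79.7% to 81.9%. H3K27ac at 7d-Dox was called in 91.7% of regions on chromosome 19 and 90.4% on chromosome 16, among the highest shares.

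Regions on the 3 chromosomes also lay farther from noDox H4K16ac, a median 11600 bp against 4800 bp. That distance comes from a list the rule used, and its part in the pattern was not tested. Under 5000 bp H4K16ac was called in 30.4% there and 49.6% elsewhere at 2d-Dox, and in 47.3% and 66.2% at 7d-Dox. At 5000 to 19800 bp the 7d-Dox shares were 29.8% and 48.0%, and at 20000 bp or more 7.76% and 26.5%. HRP reads per kb, summed over regions, were also lower on these chromosomes: 1.56 on chromosome 13, 1.63 on 16 and 1.91 on 19, against 2.22 on the other 19 together. Among the 3, chromosome 19 had the most HRP reads per kb and the lowest H4K16ac share at 2d-Dox. Over all chromosomes, in 4 classes from the fewest to the most HRP reads per kb, H4K16ac at 7d-Dox was called in 52.8%, 58.5%, 54.5% and 41.5% of regions. The lowest share was thus in the class with the most HRP reads. The part of HRP reads in the pattern was not tested. The copy number of each chromosome in this line was not measured here.

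Islands with all 3 marks showed the same 3 chromosomes lowest at 2d-Dox, with 62.9% on 13, 58.2% on 16 and 46.1% on 19. Chromosome 13 also had the highest share of its considered islands among these regions, 32.7%, and chromosome 17 the lowest, 18.7%. Of the Giemsa bands with at least 50 regions, 19p13.3 had H4K16ac in 4.41% of 68 regions at 2d-Dox and 16p13.3 in 20.0% of 65 at 7d-Dox, while 6q21 had it in 64.6% and 66.2% of 65 regions. At 7d-Dox H4K16ac was called in 25.0% of the regions of 19p13.3. H3K27ac was called there in 97.1% at 7d-Dox, in 96.9% in 16p13.3 and in 69.2% in 6q21.

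**Figure D4:**
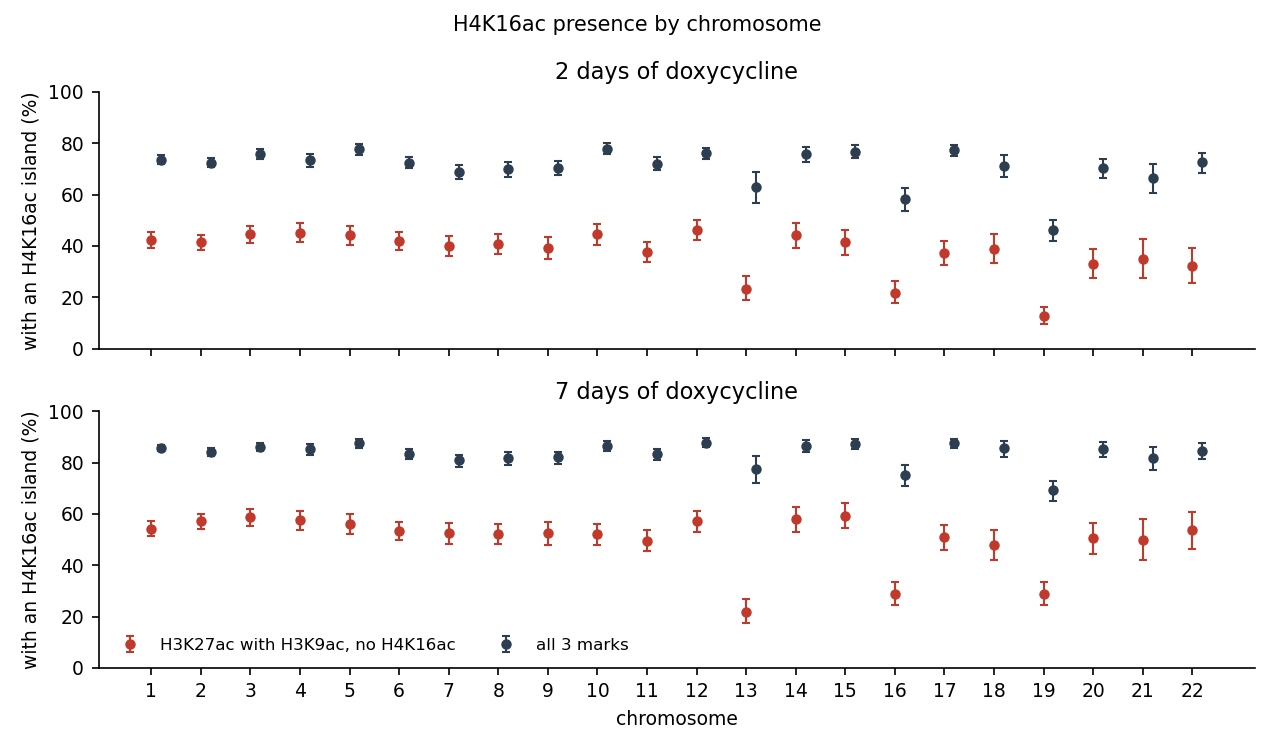
Share of regions (%) with an H4K16ac island on each chromosome (horizontal axis) at 2 days (top) and 7 days (bottom), for the regions with H3K9ac but no H4K16ac at noDox and for islands with all 3 marks; points are shares and bars 95% Clopper-Pearson intervals. Chromosomes 13, 16 and 19 lie below the rest in both sets, most so in the regions, where chromosome 19 was at 12.5% at 2 days.

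At 7d-Dox, H3K27ac and H3K9ac calls spanned more percentage points across classes of length and signal strength than H4K16ac calls did. From regions under 2000 bp to those of 10000 to 19800 bp, H3K27ac at 7d-Dox went from 63.1% to 98.8%, H3K9ac from 65.4% to 96.5% and H4K16ac from 41.3% to 65.9%. At 2d-Dox this order did not hold for length: H3K27ac went from 80.3% to 100%, H3K9ac from 70.4% to 97.5% and H4K16ac from 27.7% to 54.3%. By noDox H3K27ac reads per kb, in 4 classes of about equal size, the marks parted. From the sparsest to the densest class, H3K27ac at 7d-Dox went from 56.9% to 97.9% and H3K9ac from 69.8% to 92.1%, while H4K16ac went from 62.7% to 47.3%. The regions densest in H3K27ac thus had their starting marks called most often and H4K16ac less often than the sparsest. The lowest H4K16ac share, 46.0%, was in the class next to the densest. From sparsest to densest, H4K16ac at 7d-Dox also went from 91.0% to 83.2% in islands with all 3 marks. In H3K27ac-only islands it went from 39.7% to 15.2%. H3K27ac rose in these sets too, from 60.9% to 99.9% and from 46.3% to 77.3%, so the order was not particular to the regions. By H3K9ac reads per kb the H4K16ac shares at 7d-Dox were 53.3% in the sparsest class and 47.0% in the densest.

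Regions that went without H3K27ac were small and weak. The 643 regions (5.26%) with no H3K27ac island at 2d-Dox nor 7d-Dox had a median length of 2800 bp and 52 noDox H3K27ac reads, and none held more than 149. The 1175 regions (9.61%) with no H3K9ac at either time had medians of 3000 bp and 72 reads, and some were strong, with up to 626 H3K27ac reads.

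Where islands were called, median reads over the regions lay close together across the times, and reads per kb of called island less so. Depth-scaled reads are the antibody reads of the islands, shared out by the part of each island inside the region and divided by relative library size. Their median for H3K27ac was 31.2 at noDox, 28.0 at 2d-Dox and 28.8 at 7d-Dox over the regions with an island. For H3K9ac it was 13.4, 13.4 and 13.9, and for H4K16ac 11.0 at 2d-Dox and 10.8 at 7d-Dox. These medians are over different regions at each time, for H3K27ac 12230, 11121 and 9901, so they are not paired. Depth-scaled reads per kb of called island had medians of 8.31, 9.74 and 12.6 for H3K27ac and 6.09, 6.11 and 5.46 for H3K9ac. For H4K16ac they were 5.13 at 2d-Dox and 3.82 at 7d-Dox. How much of each region was called also differed. H3K27ac islands covered a median 78.9% of the region at 2d-Dox and 61.5% at 7d-Dox, while H4K16ac islands covered 53.5% and 78.6%. H3K27ac was split into several islands in 9.59% of regions at 2d-Dox and 16.3% at 7d-Dox.

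The ratio of 7d-Dox over 2d-Dox used no list of the rule and is the comparison least tied to the choice of regions. For H3K27ac its median was -0.052 on the log2 scale (-0.069 to -0.036, over 9435 regions with islands at both times). At least 2-fold higher were 441 (4.67%), against 5.05% over all considered islands, and at least 2-fold lower 769 (8.15%), against 7.81%. For H3K9ac the median was -0.0040 (-0.014 to 0.0084, 8388 regions), with 463 higher (5.52%, against 5.32%) and 374 lower (4.46%, against 4.2%). The regions were near the background in both marks.

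For H4K16ac the median of 7d-Dox over 2d-Dox was -0.0038 (-0.030 to 0.033, 3534 regions), with 476 at least 2-fold higher (13.5%, against 13.1%) and 267 at least 2-fold lower (7.56%, against 4.91%). Islands with all 3 marks had a median of 0.082 (0.070 to 0.093) and 4.25% lower. Per kb of called island the picture changed: the median was 0.29 for H3K27ac, -0.14 for H3K9ac and -0.38 for H4K16ac, highest in the mark whose library was shallower at 7d-Dox and lowest in the mark whose library grew most. Counting all reads of every touching island gave -0.088, 0.10 and 0.60. The direction of change in level is thus not fixed by these lists.

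Many regions past 2-fold were covered only in small part by the islands of 1 of the times. The 769 regions lower in H3K27ac at 7d-Dox were covered by the 7d-Dox islands for a median 30.8% of their length, against 61.9% over the 9435 regions, and 65 of them were also 2-fold lower per kb. Of the 441 higher in H3K27ac, 240 were also 2-fold higher per kb. Of the 463 higher in H3K9ac 2 were so, and of the 476 higher in H4K16ac none (0 of 476). Of the 374 lower in H3K9ac, 21 were also 2-fold lower per kb, and of the 267 lower in H4K16ac 25 were. By any amount, 238 and 251 of these were lower per kb. Of those higher over the region, 158 in H3K9ac and 63 in H4K16ac were higher per kb by any amount. Few regions past 2-fold in H3K9ac or H4K16ac were thus also past it per kb of called island.

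**Figure D5:**
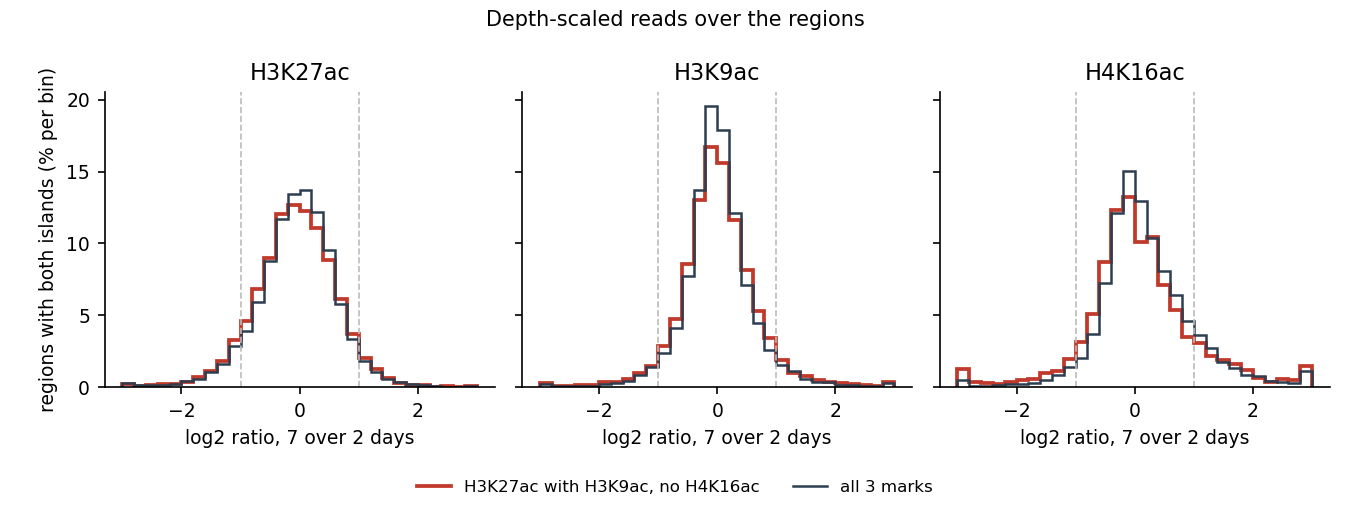
Distribution of the log2 ratio of depth-scaled reads, 7 over 2 days, for each mark over regions with islands at both times (share of regions per bin, %), in the regions with H3K9ac but no H4K16ac and in islands with all 3 marks; dashed lines mark 2-fold, and the outermost bins also hold all values beyond them. The distributions centre near 0, at -0.052, -0.0040 and -0.0038 for H3K27ac, H3K9ac and H4K16ac in the regions.

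Against noDox, a contrast the rule used, the medians for H3K27ac were -0.28 at 2d-Dox and -0.33 at 7d-Dox, and for H3K9ac -0.13 and -0.12. The noDox H3K27ac island covers each region in full by construction and the later ones need not, which can lower these values. How far it did was not tested. Per kb of called island they were 0.13 and 0.43 for H3K27ac.

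Changes in the marks between 2d-Dox and 7d-Dox were almost unrelated from region to region. Pearson's r was -0.018 between H3K27ac and H3K9ac (7032 regions), 0.051 between H3K27ac and H4K16ac (2624) and 0.024 between H3K9ac and H4K16ac (2892). These are across regions of the same libraries, share their depth and are given as a description.

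Single regions, named by rules of rank, show what the shares are made of. The positions are on hg19, and the values are depth-scaled reads over the region at noDox, 2d-Dox and 7d-Dox. Among regions of at least 2000 bp, the one with the most H3K27ac reads per kb was at 3p25.3 (chr3:10407601-10409800), with 69.6, 48.1 and 36.5 for H3K27ac. Its H3K9ac was 6.48, 19.4 and 9.21, and no H4K16ac island was called at any time. The next, at 2q14.1 (chr2:114512001-114515400), had 106, 68.5 and 51.4 for H3K27ac and no H4K16ac either. The same held for the third, at 4p16.3 (chr4:1037001-1039400), with 74.1, 55.9 and 64.9. The 3 densest H3K27ac regions thus stayed without H4K16ac, 1200 to 8000 bp from the nearest noDox H4K16ac island.

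The 3 regions of at least 2000 bp densest in H3K9ac all had H4K16ac at 7d-Dox. Neither these 3 nor the 3 densest in H3K27ac stand for their classes. H4K16ac at 7d-Dox was called in 47.0% of the densest class by H3K9ac and 47.3% by H3K27ac, against 51.8% of all regions. At 2q13 (chr2:112640401-112642600) H3K9ac was 32.8, 29.7 and 22.5, and H4K16ac appeared at 7d-Dox with 8.76. At 10q24.1 (chr10:97451601-97454400) H3K9ac was 39.4, 21.7 and 21.8, and H4K16ac 11.0 at 7d-Dox. The third, at 17p13.1 (chr17:7586001-7595200), was 9200 bp long and lay 600 bp from a noDox H4K16ac island. Its H3K27ac was 280.4, 291 and 245, its H3K9ac 114, 108 and 115, and its H4K16ac 37.9 at 2d-Dox and 41.5 at 7d-Dox. Its log2 ratios of 7d-Dox over 2d-Dox were -0.24 (counting interval -0.42 to -0.07) for H3K27ac, 0.10 (-0.08 to 0.28) for H3K9ac and 0.13 (-0.18 to 0.45) for H4K16ac. The last 2 intervals include 0.

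The longest region, at 3q27.1 (chr3:184040201-184060000, 19800 bp), had H3K27ac of 363, 306 and 366 and H3K9ac of 56.4, 78.9 and 75.3. H4K16ac was 12.6 at 2d-Dox and 18.8 at 7d-Dox. Of the 2 next in length, the one at 14q11.2 (chr14:21701401-21721000) had no H4K16ac and its H3K27ac went from 112 at 2d-Dox to 54.5 at 7d-Dox, a log2 ratio of -1.04 (counting interval -1.42 to -0.70). The islands covered 17600 of its 19600 bp at 2d-Dox and 5000 at 7d-Dox. The other, at 16q21 (chr16:57827801-57847400), held H3K27ac at 280.1, 254.5 and 287 and had H4K16ac at 7d-Dox only, at 28.2.

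The rank by H4K16ac reads used totals over the region, which favours long regions, and those named here were 14000 to 18000 bp long. Their noDox H3K27ac went from 34.4 reads per kb at 2p11.2 to 72.6 at 12p11.21, against a median of 33.1 over all regions. The region at 17q24.2 (chr17:64338601-64356000), which abuts a noDox H4K16ac island, had 59.1 at 2d-Dox and 59.9 at 7d-Dox. At 5q15 (chr5:96032001-96048600) the values were 55.3 and 57.0, and at 12p11.21 (chr12:31467001-31481000) 54.1 and 33.6. At 7d-Dox the highest were at 7q31.2 (chr7:116761001-116778200) with 36.2 and then 62.4, and at 2p11.2 (chr2:86666001-86684000) with 45.0 and then 60.9. In the region at 12p11.21, H3K27ac was 256, 274 and 274 and H3K9ac 129, 114 and 128. There the log2 ratio of H4K16ac at 7d-Dox over 2d-Dox was -0.69 (-0.97 to -0.40).

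Among regions with at least 50 reads at either time, the highest ratios of H3K27ac at 7d-Dox over 2d-Dox came with a low 2d-Dox value. At 9q34.3 (chr9:139937201-139942600) H3K27ac was 39.4, 18.7 and 89.9, a log2 ratio of 2.26 (1.81 to 2.73), and per kb 1.51. Its H3K9ac was 13.4, 21.3 and 23.7, and no H4K16ac was called. At 2q37.2 (chr2:236417401-236420400) the values were 18.3, 6.67 and 36.9, and at 12q24.11 (chr12:109004801-109008200) 24.1, 8.90 and 39.6. The 2d-Dox islands covered only 600 of 3000 bp at 2q37.2 and 800 of 3400 bp at 12q24.11. The log2 ratios there were 2.47 and 2.15 over the region but 1.24 and 0.57 per kb. At all 3 the 2d-Dox value over the region was the lowest and the 7d-Dox value the highest.

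The lowest ratios, and the most extreme ones of H3K9ac and H4K16ac, were of regions clipped by an island. The 3 lowest for H3K27ac, at 7q32.3, 1p34.2 and 11p11.2, had log2 ratios of -4.68 to -4.41 over the region. At each, the 7d-Dox island met the region over 200 bp only, and per kb the ratios were -1.22, -0.35 and -0.82. The 3 highest ratios of H3K9ac, at 9q21.31, 1q41 and 6q21, were 4.62 to 4.77 over the region but 0.08 to 0.37 per kb. For H4K16ac the 3 highest, at 6q23.3, 21q22.11 and 11q13.3, were 4.39 to 4.87, and the 3 lowest, at 14q22.1, 14q23.1 and 7q22.3, were -5.37 to -4.75. Each of these 6 had 200 bp of the region called at 1 of the times.

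Of the regions with no H3K27ac island at either later time, the 3 with the most noDox reads all had H4K16ac at 7d-Dox. Among all regions without H3K27ac at 7d-Dox, 58.3% had H4K16ac at that time, against 51.8% of all 12230. The 3 were 6800 to 8200 bp long, against a median of 2800 bp for regions without H3K27ac at both later times. The region at 2q36.3 (chr2:230752201-230760400) had 37.4 H3K27ac at noDox with no island listed after, H3K9ac of 18.0, 14.3 and 9.83, and H4K16ac of 26.2 at 7d-Dox. At 4q26 (chr4:114837601-114844600) H4K16ac was 13.6 and 26.6, and at 2q11.2 (chr2:99964401-99971200) 20.2 and 21.7. All 3 had an H3K9ac island at both times. At 7d-Dox these 3 were thus listed for H3K9ac with H4K16ac but no H3K27ac, a state called in 8.27% of all regions at that time.

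Of those with no H3K9ac island at either later time, the 3 with the most noDox H3K27ac reads had H3K27ac at both times. At 17q25.2 (chr17:75246601-75253000) H3K27ac was 157, 149.7 and 125, with H3K9ac of 11.5 at noDox and no H4K16ac. At 21q21.1 (chr21:23083401-23092000) H3K27ac was 149.7, 172 and 109, and H3K9ac, at 44.2 over 7600 bp at noDox, was in neither later list. At 3p25.3 (chr3:10589201-10602800) H3K27ac was 122, 104 and 116, and H4K16ac was 13.2 at 7d-Dox only.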

How the data were processed

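Marks were mapped by CUT&RUN in 10 samples, 9 antibody libraries and 1 HRP control. The submitters' processing notes name, with no order given here, Bowtie2 2.3.5.1, SICER, Picard, deepTools, FastQC and cutadapt, with hg19 as the build. Their settings and the handling of duplicates are not stated there. The authors deposited, for each antibody library, islands with raw read counts of antibody and control. They also deposited a log2 fold change over the control, a score equal to 100 times it, and a p-value and FDR of 0.05 or less per island. These p-values compare 2 libraries at 1 island and were used only to filter and rank islands.

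Relative library size was the constant that separates the log2 ratio of counts (a control count of 0 entered as 0.25) from the deposited log2 fold change. Reads over a region were an island's reads times the part of it inside, divided by that size. Shares have Clopper-Pearson intervals, medians order-statistic intervals and single ratios binomial intervals, all at 95%. PCR reads are not independent molecules, so these cover counting error only. With 1 library per mark and time, no comparison was tested, and fewer cells with a mark cannot be told apart from less mark per cell. The steps that give shares and ratios were run on simulated counts. The simulated islands covered their regions in full and the depth ratio was given. Partial overlap, island calling and the inferred library size were thus not tested.

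Regions were named by rank: the 3 highest by H3K27ac or H3K9ac reads per kb (at least 2000 bp), by length, by H4K16ac reads at each time, by ratio (at least 50 reads) and by noDox H3K27ac reads among those that went without a mark. The regions, sets and alternatives were chosen with earlier results of these data known. Bands came from the hg19 table of circlize 0.4.16. No genes were assigned and no sequence is shown, since no hg19 annotation or genome was used here. Left out were chromosome X and 1 island on another sequence. Computation used Python 3.11.15, numpy 2.4.6, pandas 2.3.3, scipy 1.17.1, matplotlib 3.10.9 and R 4.3.3. Alternatives changed the FDR limit, the overlap, the number of islands, the distance to H4K16ac, the length limit, the scaling, the read minimum and how reads were shared out.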

Additional observations from a re-analysis of the deposited data

How the results depend on the processing

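No paired analysis was possible because each mark and time had 1 library, so no replicate could be left out either. With an FDR of 0.001 or less (12652 regions), H3K9ac at 2d-Dox was 79.1% and H4K16ac 37.3%, and the median log2 ratio of H3K27ac at 2d-Dox over noDox -0.27. With at least 50% of the region covered, H3K27ac was 79.6% and 55.0% at 2d-Dox and 7d-Dox, H3K9ac 51.9% and 58.7%, and H4K16ac 21.9% and 39.9%. With the same number of islands per mark (15853 regions), H3K27ac was 84.7% and 60.5%, H3K9ac 71.1% and 77.4%, and H4K16ac 56.2% at 7d-Dox. With no H4K16ac within 1000 bp (10995 regions), H4K16ac was 37.7% and 49.4%. Without the length limit (12296 regions), each share moved by less than its interval.

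Reads per kb of island turned the 3 medians of H3K27ac, to 0.29 for 7d-Dox over 2d-Dox, 0.13 for 2d-Dox over noDox and 0.43 for 7d-Dox over noDox. The first had 1188 regions at least 2-fold higher and 137 lower. For H3K9ac these medians were -0.14 (55 higher, 182 lower), -0.033 and -0.17. For H4K16ac the 7d-Dox over 2d-Dox median was -0.38, with 0 higher. All reads of touching islands gave -0.088, -0.072 and -0.14 for H3K27ac. They gave 0.10 (938 higher), -0.20 and -0.083 for H3K9ac, and 0.60 (1282 higher, 142 lower) for H4K16ac.

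Scaling by summed antibody reads gave -0.13, -0.18 and -0.30 for H3K27ac. It gave -0.052 for 7d-Dox over 2d-Dox and -0.18 for 7d-Dox over noDox in H3K9ac, and -0.44 (273 higher, 610 lower) in H4K16ac. A minimum of 50 reads gave -0.12 (198 higher) for 7d-Dox over 2d-Dox and -0.34 for 7d-Dox over noDox in H3K27ac. It gave 0.026, -0.046 and -0.041 in H3K9ac, and 0.068 (123 lower) in H4K16ac. The cause of these shifts was not tested.

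H4K16ac remained commoner in the regions than in H3K27ac-only islands under the stricter FDR (25.0% in the latter at 7d-Dox) and the same number of islands (28.4%). At 7d-Dox the H3K27ac library was the shallowest and the H4K16ac library the deepest, and the part of depth in the shares was not tested.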
